A study of Mus musculus with 70 samples.

Results

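Dbh, Slc6a2, Pnmt, Phox2a and Adra2a are genes of noradrenergic and visceral neurons, and their transcript levels were followed across a survey of the mouse brain. They were chosen by name, as 5 of the 34677 genes with a level in the deposited data, and all 5 were among the 19960 genes tested. The survey held 70 RNA-Seq libraries. Of these, 57 came from 18 brain regions of untreated male C57BL/6NTac mice at P56 (postnatal day 56), 9 from 4 brain regions of C57BL/6NTac embryos at E14.5 (mid-gestation) and 4 from 2 lines of mouse embryonic stem cells (mESC) derived from C57BL/6 mice. Regions were taken as punches from frozen sections and tissue of several mice was pooled for nearly every library, so a punch holds all cells that lay within it, and the spread between libraries is a spread between pools.

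The adult hindbrain regions were the parabrachial nucleus (PB, n = 3), the nucleus of the solitary tract (NTS, n = 4) and the dorsal-vagal complex (DVC, n = 3). The cerebellum was represented by the cerebellar nuclei (CBN, n = 3) and 4 regions of its cortex, namely central lobule II (CENT2), culmen lobules IV and V (CUL4-5), the uvula (UVU) and the flocculus (FL). The hypothalamus was represented by its arcuate (ARH), dorsomedial (DMH), lateral (LHA), paraventricular (PVH) and ventromedial (VMH) regions. The remaining adult regions were the anterior cingulate area (ACA), frontal pole cortex (FRP), entorhinal area (ENT), nucleus accumbens (ACB) and ventral tegmental area (VTA). The embryonic regions were hindbrain (H, n = 3), midbrain (M, n = 2), hypothalamus (THy-PHy, n = 3) and forebrain (F, n = 1). The stem cell lines were mESC_B6-1 and mESC_B6-2, with 2 libraries each.

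Noradrenaline is made from tyrosine by tyrosine hydroxylase (Th), aromatic amino acid decarboxylase (Ddc) and dopamine beta-hydroxylase (Dbh), the last of which turns dopamine into noradrenaline and so marks noradrenergic and adrenergic cells. Pnmt methylates noradrenaline to adrenaline, Slc6a2 is the plasma membrane transporter that takes noradrenaline back up, and Adra2a is the alpha-2A receptor, found both on noradrenergic neurons themselves and on their target cells. Phox2a is a homeodomain transcription factor needed to form noradrenergic neurons of the locus coeruleus and some cranial motor neurons. Noradrenergic neurons lie in small clusters of the pons and medulla. The locus coeruleus sits in the dorsal pons beside the parabrachial nucleus and under the cerebellum, other groups lie in and near the nucleus of the solitary tract and the ventral medulla, and their axons reach most of the forebrain. Transcripts of Dbh and Slc6a2 are mostly found where the cell bodies are, whereas Adra2a is also transcribed in the cells that receive the input.

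Dbh (ENSMUSG00000000889.8) occupies chromosome 2, bases 27165233 to 27183200, and Slc6a2 (ENSMUSG00000055368.14) chromosome 8, bases 92960079 to 93001667, in build GRCm38. Pnmt (ENSMUSG00000038216.7) occupies chromosome 11, bases 98386450 to 98388181, Phox2a (ENSMUSG00000007946.11) chromosome 7, bases 101818313 to 101822726, and Adra2a (ENSMUSG00000033717.6) chromosome 19, bases 54044151 to 54048982. All 5 lie on the plus strand. Adra2a has 1 annotated transcript and each of the others has 2. The promoters of Dbh and Phox2a are shown because these genes reached their highest level in the same region and because Phox2a encodes a factor of the kind that binds TAAT cores. Each covers 250 bases before and 50 bases after the RefSeq start (RefSeq, GRCm38.p6), on the plus strand and written 5′ to 3′. Capitals mark matches on either strand to TAAT (read as TAAT or ATTA) in the Dbh promoter and to GGGCGG (read as GGGCGG or CCGCCC) in the Phox2a promoter, where the last 2 matches overlap.

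Dbh promoter, chr2:27165257-27165556: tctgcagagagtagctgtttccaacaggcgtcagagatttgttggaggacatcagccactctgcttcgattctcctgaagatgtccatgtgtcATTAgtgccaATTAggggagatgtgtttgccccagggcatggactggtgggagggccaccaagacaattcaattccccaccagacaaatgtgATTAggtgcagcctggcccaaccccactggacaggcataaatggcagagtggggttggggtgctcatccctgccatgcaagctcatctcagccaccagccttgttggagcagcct

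Phox2a promoter, chr7:101818063-101818362: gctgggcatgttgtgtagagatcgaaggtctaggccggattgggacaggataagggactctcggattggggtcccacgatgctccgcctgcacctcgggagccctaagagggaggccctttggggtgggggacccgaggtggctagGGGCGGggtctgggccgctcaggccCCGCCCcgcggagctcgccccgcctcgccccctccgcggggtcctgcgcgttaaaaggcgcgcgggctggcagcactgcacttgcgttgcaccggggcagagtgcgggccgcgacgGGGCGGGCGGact

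The Dbh window held 3 matches to TAAT and 0 to GGGCGG, and the Phox2a window held 0 matches to TAAT and 4 to GGGCGG. Of 32851 RefSeq promoter windows of the same length, 58.0% held at least 1 TAAT and 35.7% at least 1 GGGCGG, so neither match is rare. The spaced pair TAATNNNATTA, present in 0.487% of windows, was not found in the windows of Dbh, Phox2a and Adra2a. GC content was 54% for Dbh, 71.3% for Phox2a and 68.7% for Adra2a, against a median of 52.7% over all windows. The RefSeq start of Dbh lies 274 bases inside the gene as annotated by GENCODE, and that of Adra2a 1108 bases inside it, whereas for Phox2a the starts coincide. Binding was not measured, and a match is a description of the letters only.

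Total counts per library lay between 9074580 and 22229582, with a median of 17016934. Levels are given in TPM, the relative number of transcripts, which divides by transcript length and can be compared between genes, and ± denotes the SD between libraries. A library with no read of a gene allows up to 3 counts, or 0.176 CPM (counts scaled by the library total) at the median depth and 0.331 CPM in the shallowest library, from counting error alone. The largest count of a member in 1 library was 3222 for Dbh, 4134 for Slc6a2, 102 for Phox2a and 1310 for Adra2a, but 27 for Pnmt, so Pnmt is the least precisely measured. Adult, embryonic and stem cell libraries were prepared in separate batches, which are listed by region and not by library, so that stage and batch cannot be told apart. The study used fewer adult mice than adult regions, so libraries of different adult regions shared mice. The main fit has no term for this sharing and treats the libraries as independent.

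A few libraries stood apart from their group in markers of neighbouring tissue. The 3 CBN libraries ran from 3.25 to 34.8 TPM for the sum of 8 caudal hindbrain Hox genes, with the highest sum in CBN replicate 1, and from 3438 to 12240 TPM for Ttr, a marker of choroid plexus. NTS replicate 1 held 10330 TPM of Ttr against 2.47 to 10.7 TPM in the other 3 NTS libraries. H replicate 3 held 37.8 TPM of the Hox genes against 466 and 468 TPM in the other 2 H libraries. PB libraries held 0.232 to 0.691 TPM of the Hox genes and 0.221 to 0.691 TPM of Ttr, together with 20.9 to 144 TPM for the sum of 5 serotonergic genes. The sum of 6 dopaminergic genes was 293 to 301 TPM in PB, with 3 to 5 of them at 1 TPM or more, beside 272 to 459 TPM over NTS and DVC. Of these genes, Slc6a3 was higher in PB, at 0.736 to 1.58 TPM against 0.0310 to 0.239 TPM over NTS and DVC. Foxa1 reached at most 0.0399 TPM in PB and 0.102 TPM over NTS and DVC. The sum of 5 cholinergic genes was 132 to 145 TPM in PB. In DVC it was 354 TPM in replicate 1 against 82.8 and 75.9 TPM in the other 2, with 45.4 TPM of Chat against 10.5 and 11.7 TPM. PB libraries also held 28.4 to 54.2 TPM of Calca, the CGRP precursor known from parabrachial neurons. The part of these neighbouring tissues in the levels below was not tested.

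Dbh was a gene of PB and CBN. Its level in the 3 PB libraries was 89.0, 92.7 and 163 TPM (mean 115 ± 41.5, n = 3), which is 54.6% ± 19.8 of the sum of the 24 group means. The 3 CBN libraries held 2.32, 114 and 57.5 TPM (57.8 ± 55.7, n = 3), so CBN replicate 1 was more than 20-fold below each of the other CBN libraries and CBN overlapped PB. DVC held 9.63, 7.62 and 8.88 TPM (8.71 ± 1.02, n = 3). NTS held 3.38, 20.7, 6.71 and 3.45 TPM (8.55 ± 8.22, n = 4). The spread in NTS came largely from replicate 2, whereas the DVC libraries lay close together. In bulk tissue, fewer cells of a type and less RNA per cell cannot be told apart, and a punch that met more or fewer of a small cluster of cells would read the same way.

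Outside these 4 regions Dbh was low. In the 44 libraries of the other 14 adult regions its median was 0.0510 TPM, with no read in 14 of them, and 5 reached 1 TPM. Those 5 were ACA replicate 3 (7.27 TPM), CENT2 replicate 1 (7.34 TPM), UVU replicate 1 (4.44 TPM), ENT replicate 1 (4.11 TPM) and FRP replicate 3 (3.28 TPM), each well above the other libraries of its region. Part of these levels rested on a short non-coding transcript, Dbh-202, for which few reads give a large TPM. In ACA replicate 3 it gave 6.71 TPM from 1.85 estimated reads, and in CENT2 replicate 1 it gave 5.602 TPM from 1.53 estimated reads. In ENT replicate 1 and FRP replicate 3 it gave 3.69 and 2.86 TPM from 0.898 and 0.872 estimated reads. The coding level was 0.42 TPM in ENT replicate 1, beside 0.29 and 0.259 TPM in the other ENT libraries. It was 0.419 TPM in FRP replicate 3, beside 0.42 and 0.408 TPM in the other FRP libraries. Counted over protein-coding transcripts alone, 5 rather than 8 of the 57 libraries outside PB, CBN, NTS and DVC reached 1 TPM. The count of Dbh reads was nevertheless raised in CENT2 replicate 1, with 39 reads against 1 to 2 in the other 3 CENT2 libraries, and in UVU replicate 1, with 41 reads beside 20.9 TPM of the caudal Hox genes and 2030 TPM of Ttr. All 14 hypothalamic libraries lay at or below 0.133 TPM. The 3 VTA and 4 mESC libraries had no Dbh read.

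Slc6a2 followed Dbh at lower levels. The PB libraries held 41.6, 44.8 and 84.6 TPM (56.99 ± 23.9, n = 3), or 61.5% ± 25.8 of the summed group means, and the CBN libraries held 1.69, 50.8 and 26.4 TPM (26.3 ± 24.5, n = 3). CBN replicate 1 was again the low library. NTS held 0.726, 8.63, 1.08 and 0.409 TPM (2.71 ± 3.96, n = 4), with replicate 2 again the highest. DVC held 0.618, 0.314 and 1.28 TPM (0.737 ± 0.494, n = 3). The other 14 adult regions had a median of 0.0413 TPM and 1 of their 44 libraries reached 1 TPM, which was CENT2 replicate 1 with 1.37 TPM from 73 counts, the library that was also raised for Dbh. Below PB and CBN, the neighbours in the order from H through NTS, M and DVC to THy-PHy overlapped each other.

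The ratio of Slc6a2 to Dbh TPM was 0.467, 0.484 and 0.520 in PB and 0.729, 0.447 and 0.459 in CBN, where replicate 1, the highest, also had the highest Hox sum. It was 0.118 to 0.418 in NTS and 0.0412 to 0.144 in DVC, so every NTS and DVC library lay below every PB library. In H it ran from 0.155 to 1.04. The ratio of Th to Dbh was 0.639 to 0.777 in PB and 1.01 to 2.19 over NTS and DVC, where again the libraries did not overlap, and 1.89 in CBN replicate 1. These ratios were formed after the levels had been seen and are given as a description. Th itself was 61.3, 72.1 and 104 TPM in PB and 239, 778 and 901 TPM in the 3 VTA libraries, where Dbh had no read. The plot of member levels by library shows the shared peak of Dbh and Slc6a2 and the scattered high libraries.

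**Figure D1:**
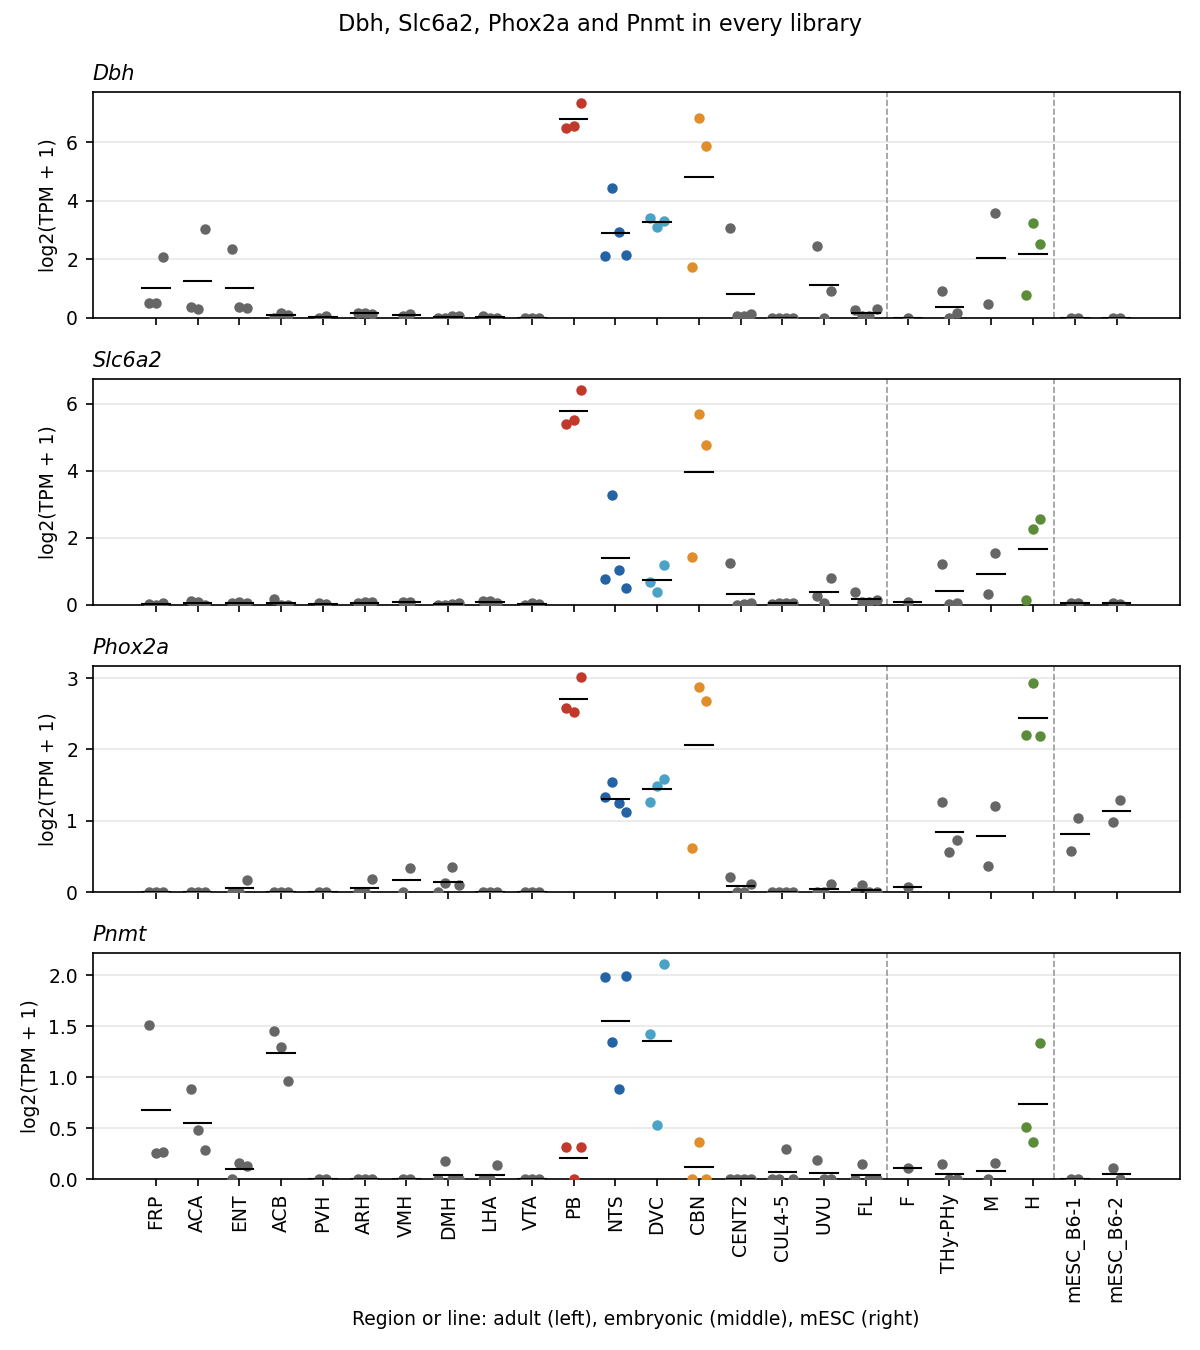
Level of Dbh, Slc6a2, Phox2a and Pnmt (1 panel each, with its own scale) in each of the 70 libraries, as log2(TPM + 1) against the 24 regions and lines, with adult regions left, embryonic regions between the dashed lines and stem cells right; points are libraries and bars are means of these log values. Dbh and Slc6a2 peak in PB and in 2 of the 3 CBN libraries, and Phox2a is high in these and in embryonic hindbrain. Single high Dbh libraries stand out in ACA, CENT2, ENT, FRP and UVU. In ACA, ENT and FRP these come mostly from the short non-coding Dbh-202, with 0.557, 0.42 and 0.419 TPM from the coding transcript. Pnmt stays at or below 3.32 TPM, highest in NTS and DVC.

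Phox2a, the factor, was high in PB, embryonic hindbrain and CBN. PB held 4.96, 4.74 and 7.09 TPM (5.596 ± 1.30, n = 3), H held 3.60, 6.61 and 3.57 TPM (4.59 ± 1.75, n = 3) and CBN held 0.528, 6.36 and 5.40 TPM (4.09 ± 3.13, n = 3). PB therefore took 25.9% ± 6.0 of the summed group means, a smaller share than for Dbh. DVC held 1.40, 1.82 and 2.00 TPM and NTS 1.52, 1.92, 1.37 and 1.17 TPM, all below every PB library. In the 44 libraries of the other adult regions Phox2a reached at most 0.281 TPM and had no read in 34. The stem cells held a low level, 0.488 to 1.44 TPM over 4 libraries, in which Dbh had no read. Neighbours in the order of regions overlapped from PB down to the stem cells, and the first gap lay between mESC_B6-1 and VMH.

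Pnmt, the adrenaline enzyme, was low everywhere, with its highest mean TPM in NTS and DVC. NTS held 2.96, 1.54, 0.843 and 2.99 TPM from 11, 11, 8 and 7 counts (2.08 ± 1.07 TPM, n = 4), and DVC held 1.68, 0.444 and 3.32 TPM from 5, 5 and 27 counts (1.82 ± 1.45 TPM, n = 3). The level in NTS was 26.0% ± 13.4 of the summed group means. A short non-coding transcript, Pnmt-202, gave 2.45 TPM of the level in NTS replicate 4 from 1.64 estimated reads, and with protein-coding transcripts alone the NTS share was 16.2% and NTS was no longer the region with the highest mean. The coding level was 0.543 to 1.12 TPM in NTS, 0.506 to 1.05 TPM in the nucleus accumbens and 0.488, 0.444 and 3.02 TPM in DVC, where replicate 3 stood alone. PB held 0.247, 0 and 0.246 TPM. The nucleus accumbens held 1.74, 1.45 and 0.9497 TPM from 5, 11 and 10 counts, and overlapped NTS and DVC. A single frontal pole library held 1.86 TPM from 20 counts against 0.199 and 0.201 TPM in the other 2. Of the 44 libraries of the other 14 adult regions, 28 had no Pnmt read.

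Adra2a, the receptor, was spread over the whole brain. It was above 1 TPM on average in all 22 brain regions and above 10 TPM in 12, whereas the mESC lines held 0.0737 and 0.0895 TPM. VMH was highest at 29.4 ± 10.3 TPM (n = 2) with 9.55% ± 3.36 of the summed group means, followed by DVC at 26.0 ± 4.72 TPM (n = 3), ENT at 24.8 ± 4.56 TPM (n = 3), DMH at 24.1 ± 4.81 TPM (n = 4), LHA at 23.1 ± 5.11 TPM (n = 3) and ARH at 21.8 ± 1.84 TPM (n = 3). Next came NTS with 19.04 ± 1.47 TPM (n = 4), PB with 18.7 ± 0.613 TPM (n = 3) and CBN with 16.9 ± 1.12 TPM (n = 3). ACA was the lowest brain region at 3.47 ± 0.684 TPM (n = 3). Between neighbours in this order the libraries overlapped, apart from the steps from PB to CBN, from FL to PVH, from F to ACA and from ACA to mESC_B6-2. PVH, at 10.2 and 11.3 TPM, was the low region of the hypothalamus. CBN replicate 1, low for Dbh and Slc6a2, was close to the other CBN libraries here, with 15.6 TPM against 17.52 and 17.53 TPM.

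**Figure D2:**
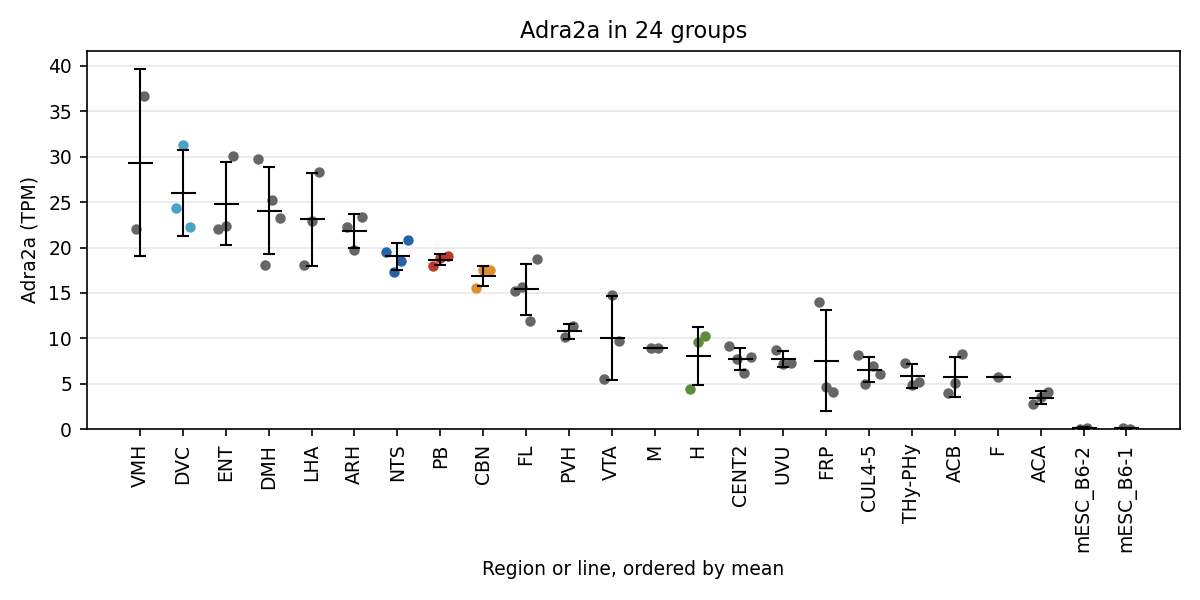
Adra2a level in TPM (vertical axis) for the 24 regions and lines (horizontal axis), ordered by their mean; points are libraries, long bars are means and whiskers the SD between libraries, with no whisker for F, which has 1 library. VMH leads at 29.4 TPM, the cortical area ENT lies at 24.8 TPM while ACA lies at 3.47 TPM, and both stem cell lines are near 0.

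Differences between regions were tested on counts with edgeR's quasi-likelihood test over all 19960 genes. A gene was called where its adjusted p (Benjamini-Hochberg) was under 0.05 and its absolute log2 fold change above 1, and ± after a log2 fold change denotes the SE. The first 3 comparisons set PB, NTS or DVC against the average of the other 15 adult regions, which hold 47 libraries and which these comparisons share. This average is taken on the log scale, so that for genes with few or no reads in most regions the fitted log2 fold change depends on the prior count and is not a bound. The mean TPM is therefore given beside it.

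In PB, 3 of the 5 members were called higher, where 4.84% of all genes were called higher and 2.28% lower. Dbh was 115 TPM in PB and 4.50 TPM on average in the other regions, with a fitted log2 fold change of 9.74 ± 0.426 and an adjusted p of 3.72e-22. Slc6a2 was 56.99 against 1.84 TPM (log2 9.42 ± 0.459, adjusted p = 2.97e-22) and Phox2a was 5.596 against 0.302 TPM (log2 7.39 ± 0.422, adjusted p = 2.24e-16). Adra2a was 18.7 against 14.3 TPM, a log2 fold change of 0.62 ± 0.184 that had an adjusted p of 0.00754 but stayed under the required size. Pnmt had 0.164 TPM in PB and 0.199 TPM elsewhere (adjusted p = 0.0926). With the 47 other libraries taken as a single group, whose spread then includes the differences between regions, Dbh was no longer called (log2 4.76, adjusted p = 0.0525), while Slc6a2 and Phox2a were.

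In NTS, 4 of the 5 members were called higher, where 6.06% of all genes were called higher and 3.11% lower. Pnmt was 2.08 TPM in NTS and 0.199 TPM elsewhere (log2 4.09 ± 0.537, adjusted p = 2.96e-08). Phox2a was 1.49 against 0.302 TPM (log2 5.58 ± 0.464, adjusted p = 1.11e-12). Dbh was 8.55 against 4.50 TPM (log2 6.11 ± 0.515, adjusted p = 1.42e-13) and Slc6a2 2.71 against 1.84 TPM (log2 5.15 ± 0.575, adjusted p = 1.14e-10). The means of Dbh and Slc6a2 elsewhere were carried by CBN, since without CBN they were 0.688 and 0.0914 TPM. With CBN left out of the reference, a choice made after seeing the data, the same number of members was called in PB, NTS and DVC. Adra2a was 19.04 against 14.3 TPM and was not called (log2 0.77 ± 0.158, adjusted p = 6.6e-05). With the other libraries as 1 group, the call held for Pnmt alone (log2 2.51, adjusted p = 0.0291).

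In DVC, 5 of the 5 members were called higher, where 5.32% of all genes were called higher and 2.37% lower. Pnmt was 1.82 against 0.199 TPM (log2 4.50 ± 0.564, adjusted p = 1.86e-08), Phox2a 1.74 against 0.302 TPM (log2 5.78 ± 0.49, adjusted p = 4.04e-12) and Dbh 8.71 against 4.50 TPM (log2 6.06 ± 0.56, adjusted p = 4.61e-12). Adra2a was 26.0 against 14.3 TPM (log2 1.15 ± 0.172, adjusted p = 3.24e-07), and without DVC replicate 2 it fell just short of the required size at 0.98. The call of Slc6a2 (log2 3.16 ± 0.845, adjusted p = 0.00229) goes with a mean TPM in DVC, 0.737, below the 1.84 TPM of the reference with CBN in it, and it was lost without DVC replicate 3 (adjusted p = 0.0885). With the other libraries as 1 group the call held for Pnmt alone (log2 2.92, adjusted p = 0.0398), and the log2 fold change of Slc6a2 was -1.35.

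NTS and DVC overlap anatomically, and no member was called between them. Of the 5 members, 0 were called between DVC and NTS by edgeR, where 0.0752% of all genes were called, and DESeq2 and limma also called 0. Slc6a2 was the 1 member with an unadjusted p under 0.05, lower in DVC by a log2 fold change of -1.98 ± 0.901 (adjusted p = 0.682). Adra2a was not called by edgeR (log2 0.38 ± 0.244, adjusted p = 0.879), although its libraries did not overlap. They held 22.3 to 31.3 TPM in DVC and 17.3 to 20.8 TPM in NTS.

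PB differed from NTS and DVC together in the members of the noradrenaline pathway. Of the 5 members, 3 were called higher in PB, where 1.44% of all genes were called higher and 0.857% lower. Slc6a2 was 56.99 TPM in PB and 1.72 TPM as the mean of NTS and DVC, a ratio of 33.0 (log2 5.27 ± 0.699, adjusted p = 3.15e-07). Dbh was 115 against 8.63 TPM, a ratio of 13.3 (log2 3.65 ± 0.574, adjusted p = 1.61e-05). Phox2a was 5.596 against 1.62 TPM, a ratio of 3.46 (log2 1.72 ± 0.525, adjusted p = 0.0351). For each of these 3 genes every PB library lay above every NTS and DVC library. The call of Phox2a was close to the threshold and was lost in 9 of 11 fits that each left out 1 library, with adjusted p from 0.0511 to 0.181. Those 9 fits left out each of the PB and DVC libraries or NTS replicate 1, 3 or 4. Pnmt lay the other way, with every PB library below every NTS and DVC library, 0.164 against 1.95 TPM on average, but was not called (log2 -2.77 ± 0.939, adjusted p = 0.0613). It was called by limma on TPM and without DVC replicate 2 (adjusted p = 0.0468). Th was called higher in PB at 79.1 against 10.6 TPM (log2 2.86 ± 0.398, adjusted p = 1.02e-06).

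**Figure D3:**
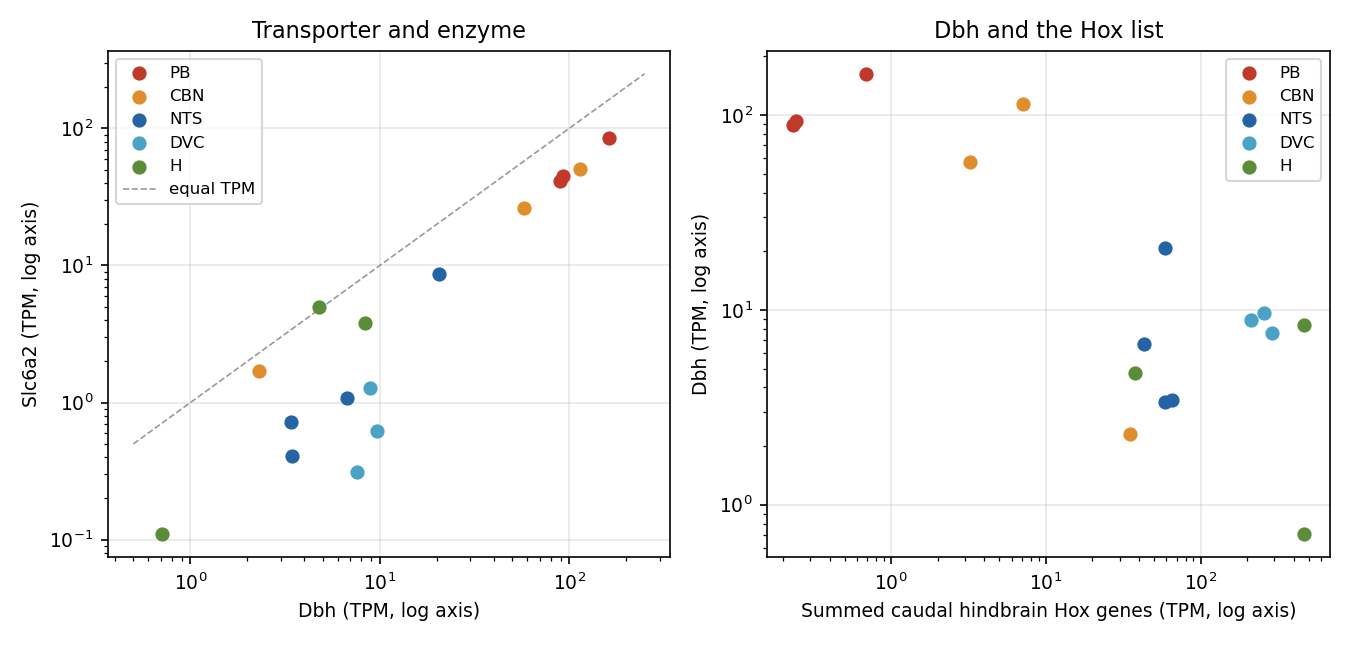
Slc6a2 level against Dbh level (left, with a dashed line of equal TPM) and Dbh level against the summed level of 8 caudal hindbrain Hox genes (right), 1 point for each library of PB, CBN, NTS, DVC and embryonic hindbrain (H), all in TPM on log axes. PB and 2 CBN libraries lie together at the high end of both genes and at low Hox sums, DVC libraries lie at 213 to 290 TPM of Hox with Dbh at 7.62 to 9.63 TPM, and CBN replicate 1 has the highest Hox sum and the lowest Dbh of the CBN libraries.

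In the cerebellum most members were higher in the nuclei than in the cortex. Of the 5 members, 4 were called higher in CBN than in the 4 cortical regions, where 10.9% of all genes were. Dbh was 57.8 TPM in CBN and 0.947 TPM in the cortical regions (log2 8.85 ± 0.628, adjusted p = 8.65e-16), and Slc6a2 was 26.3 against 0.218 TPM (log2 7.60 ± 0.628, adjusted p = 9.68e-15). Phox2a was 4.09 against 0.0262 TPM (log2 7.29 ± 0.587, adjusted p = 4.44e-13) and Adra2a 16.9 against 9.35 TPM (log2 1.13 ± 0.193, adjusted p = 2.46e-06). Pnmt was not called (adjusted p = 0.158). Libraries did not overlap for Slc6a2 and Phox2a, but did for Dbh and Adra2a. CBN replicate 1 held 2.32 TPM of Dbh, below CENT2 replicate 1 (7.34 TPM) and UVU replicate 1 (4.44 TPM). From the coding transcript alone these 2 cortical libraries held 1.73 and 2.27 TPM. Adra2a reached 18.7 TPM in FL and 17.53 TPM in CBN. Adra2a fell under the required size when limma was used on TPM (log2 0.91 and 0.94). The 2 CBN libraries rich in Dbh were also rich in Gal, with 37.7 and 17.3 TPM against 2.22 TPM in replicate 1, and in Calca, with 21.3 and 11.9 TPM against 2.22 TPM. Their summed level of 6 cerebellar granule and Purkinje cell genes was 589 and 948 TPM against 419 TPM in replicate 1 and at most 145 TPM in PB.

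At E14.5 the members were compared between hindbrain and midbrain with hypothalamus. Dbh was 0.704, 8.36 and 4.77 TPM in H, 0.384 and 11.1 TPM in M, and 0.909, 0 and 0.119 TPM in THy-PHy. M replicate 2 was thus as high as the hindbrain, with 8.93 TPM of its level from Dbh-202 and 2.12 TPM from the coding transcript, beside 1614 TPM of Ttr. Slc6a2 was 0.109, 3.80 and 4.96 TPM in H against 0.249 and 1.93 TPM in M and 0.0171 to 1.32 TPM in THy-PHy. Of the 5 members, 4 were called higher in H than in M and THy-PHy, where 6.11% of all genes were called higher and 1.91% lower, but DESeq2 and limma called 2. The mean level of Dbh was 4.61 TPM in H and 5.72 TPM in M.

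The embryonic call was firmest for the factor. Phox2a had a log2 fold change of 2.98 ± 0.609 (adjusted p = 0.000351), and each of the 3 H libraries lay above every M and THy-PHy library. Dbh (log2 3.02 ± 0.802, adjusted p = 0.00336), Slc6a2 (log2 2.24 ± 0.812, adjusted p = 0.0285) and Pnmt (log2 2.96 ± 1.09, adjusted p = 0.0324) were called, and each of these calls depended on single libraries. Pnmt was 0.429, 0.285 and 1.53 TPM in H, from 3, 3 and 4 counts. In M and THy-PHy it was at most 0.113 TPM, from at most 1 count in a library. In H replicate 3, 1.20 TPM came from Pnmt-202 and 0.334 TPM from the coding transcript. The groups did not overlap for Pnmt, whereas those of Dbh and Slc6a2 did. For Pnmt this rests on few reads, since a library with no read allows up to 3 counts. Dbh lost its call without H replicate 2 (adjusted p = 0.0602). Slc6a2 lost it without H replicate 2 or 3, M replicate 1 or THy-PHy replicate 2 or 3 (adjusted p from 0.0572 to 0.122). Pnmt lost it without H replicate 1, M replicate 1 or THy-PHy replicate 2 or 3 (adjusted p from 0.0558 to 0.138). Th went the other way and was lower in H, at 6.55 against 24.3 TPM (log2 -1.76 ± 0.524, adjusted p = 0.0077). This call of Th was also lost in 1 of 9 fits that each left out 1 library, over which its log2 fold change ran from -2.43 to -1.46.

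Between stages, 2 of the 5 members were called between embryonic hindbrain and the average of PB, NTS and DVC, a share close to the 44.0% of all genes called in either direction. Both were lower in the embryo. They were Dbh (log2 -2.07 ± 0.675, adjusted p = 0.00603) and Adra2a, which was 4.42, 9.62 and 10.2 TPM in H and 17.3 to 31.3 TPM in the 10 adult libraries (log2 -1.30 ± 0.236, adjusted p = 2.79e-06). Phox2a was higher in H without reaching the threshold (log2 1.06 ± 0.496, adjusted p = 0.0562), and passed it without H replicate 3 (adjusted p = 0.0298). Stage and batch cannot be told apart here.

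The step from hindbrain to midbrain and hypothalamus was larger in the adult than in the embryo for 3 of the 5 members, where 3.89% of all genes were called larger. This was tested as an interaction, with adult VTA and hypothalamus set beside embryonic M and THy-PHy. The difference between the steps was 7.43 ± 1.65 on the log2 scale for Dbh (adjusted p = 0.000433), 5.19 ± 1.37 for Slc6a2 (adjusted p = 0.00217) and 4.16 ± 0.999 for Phox2a (adjusted p = 0.00118). Adult VTA held no Dbh or Phox2a read, so the sizes for these genes depend on the prior count. Without THy-PHy replicate 1, which held 0.909 TPM of Dbh and 1.32 TPM of Slc6a2, the calls of Dbh (adjusted p = 0.109) and Slc6a2 (adjusted p = 0.384) were lost. That of Phox2a was lost with limma on log2(TPM + 0.5) (log2 0.52, adjusted p = 0.263).

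**Figure D4:**
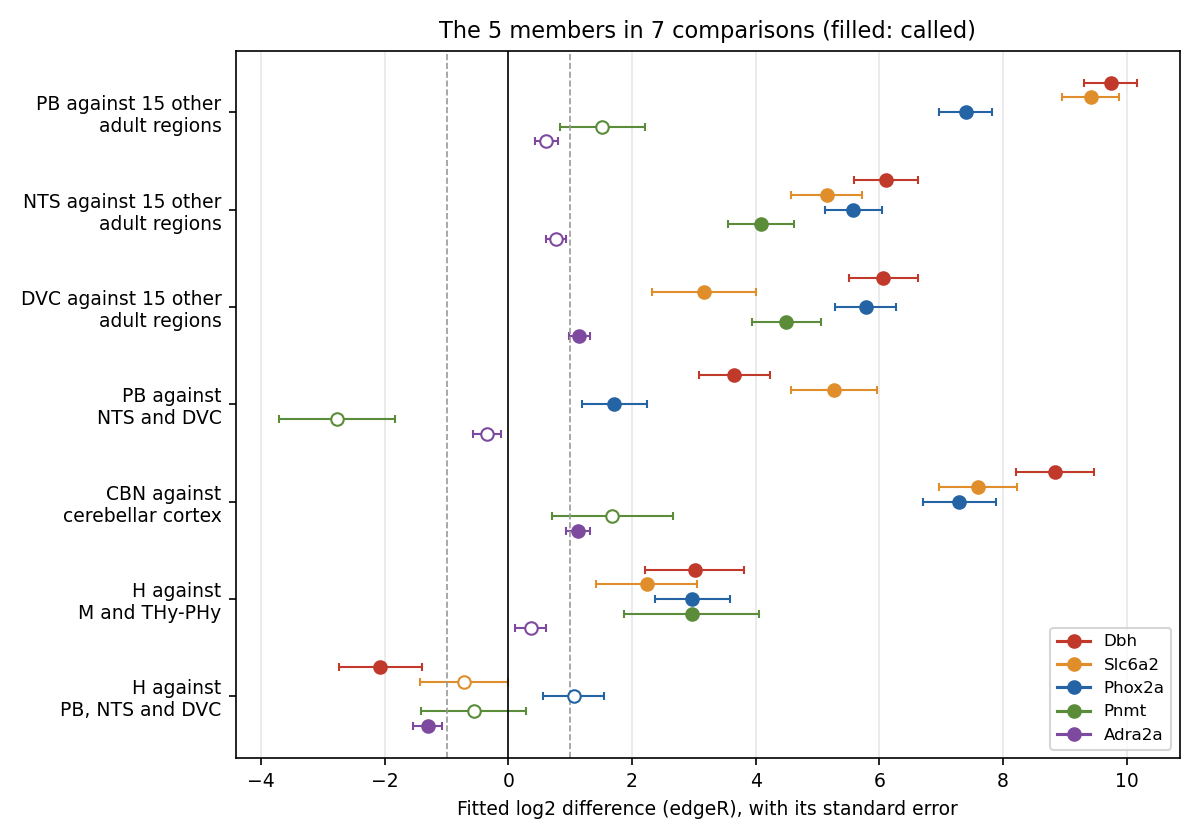
Fitted log2 fold change of the 5 members (horizontal axis) in 7 of the comparisons (vertical axis), with whiskers for 1 SE, a solid line at 0 and dashed lines at -1 and 1; filled points were called and open points were not. The fold changes of Dbh, Slc6a2 and Phox2a are largest in PB against the 15 other adult regions and in CBN. These genes are also called in NTS and DVC, at 3.16 to 6.11. Pnmt is called in NTS, DVC and embryonic hindbrain against M and THy-PHy, and Adra2a stays between -1.30 and 1.15.

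The 5 hypothalamic regions averaged 21.8 TPM of Adra2a against 13.1 TPM in the other 13 adult regions. This log2 fold change of 0.78 ± 0.0995 had an adjusted p of 2.02e-09 but stayed under the required size. Slc6a2 was the 1 of 5 members called lower in the hypothalamus, with 0.0471 TPM against a mean of 6.75 TPM over regions that include PB and CBN (log2 -2.84 ± 1.06, adjusted p = 0.0207), where 2.92% of all genes were. For Dbh, Pnmt and Phox2a, which had means of 0.0483, 0.0132 and 0.0577 TPM in the hypothalamus, the edgeR fit gave no usable SE. DESeq2 called 4 members in this comparison and limma 2 or 4, depending on the pseudocount.

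Adra2a also separated cortical areas. ENT held 22.0, 22.4 and 30.1 TPM and ACA and FRP held 2.73 to 13.98 TPM, so the groups did not overlap. The means were 24.8 and 5.51 TPM, a ratio of 4.50 (log2 2.37 ± 0.226, adjusted p = 1.58e-11). Adra2a was the 1 of 5 members called higher in ENT, where 1.99% of all genes were called higher and 1.67% lower. Pnmt was lower in ENT without being called (log2 -2.80 ± 1.07, adjusted p = 0.0866).

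The other genes of the pathway were followed in 4 lists that contain none of the 5 members. Of all genes, 4.84% were called higher and 2.28% lower in PB, 6.06% and 3.11% in NTS, and 5.32% and 2.37% in DVC. Against NTS and DVC together, 1.44% were called higher and 0.857% lower in PB. For embryonic hindbrain against midbrain and hypothalamus the shares were 6.11% and 1.91%. Of 13 genes of noradrenaline synthesis and handling, 7 were called higher and 0 lower in PB against the other adult regions, with a median log2 fold change of 1.06 over the list and -0.01 over all genes. They included the vesicular monoamine transporter Slc18a2 at 44.4 against 17.3 TPM (log2 2.65 ± 0.279, adjusted p = 7.25e-11), Th at 79.1 against 66.3 TPM (log2 2.27 ± 0.294, adjusted p = 1.87e-08) and Ddc at 65.8 against 50.5 TPM (log2 1.86 ± 0.278, adjusted p = 4.44e-07), which serotonergic and dopaminergic cells also use. With the other libraries as 1 group these 3 calls were lost (log2 1.13, 0.13 and 0.46, adjusted p = 0.577, 0.979 and 0.857). In NTS 2 were called higher and 1 lower, and in DVC 2 higher and 0 lower. Against NTS and DVC together, 5 were called higher in PB and 0 lower, among them Slc18a2 (log2 3.09 ± 0.398, adjusted p = 1.62e-07) and Gch1, which makes the cofactor of Th (log2 2.16 ± 0.337, adjusted p = 8.43e-06). The PB libraries ranged from 8.69 to 79.8 TPM for Tph2 and from 3.99 to 52.6 TPM for Slc6a4, which are serotonergic, with the lowest level of both in replicate 2. Dbh in replicate 2 was 92.7 TPM, close to the 89.0 TPM of replicate 1, where both were highest. The part of serotonergic cells in the levels of Slc18a2 and Ddc was not tested.

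Of 10 tested transcription factors of noradrenergic and visceral neurons, 7 were called higher in PB, 6 in NTS and 7 in DVC against the other adult regions, with 0, 1 and 0 called lower. The median log2 fold changes over the list were 2.78, 2.17 and 2.25. Tlx3, which helps to form noradrenergic and visceral sensory neurons, was 4.67 TPM in PB and 2.78 TPM in DVC against a reference mean of 1.49 TPM (log2 6.35 ± 0.513 and 5.66 ± 0.542, adjusted p = 4.64e-12 and 1.51e-10). The cerebellar cortex averaged 5.16 TPM of Tlx3, above PB, and both calls were lost with the other libraries as 1 group (log2 1.71 and 1.02, adjusted p = 0.539 and 0.744). Gata3, a factor known from sympathetic noradrenergic and from serotonergic neurons, was 10.9 TPM in PB and 1.54 TPM as the mean of NTS and DVC (log2 2.68 ± 0.434, adjusted p = 1.69e-05). In embryonic hindbrain against midbrain and hypothalamus 4 factors were called higher and 2 lower, with Tfap2a (log2 3.68 ± 0.293, adjusted p = 2.07e-13) and Tfap2b (log2 2.23 ± 0.227, adjusted p = 3.05e-10) among the higher.

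The other adrenoceptors did not share one pattern with Adra2a. Of 8, 1 was called higher and 1 lower in PB, and 0 higher and 1 lower in each of NTS and DVC. The gene called lower in all 3 was Adra2b, at 0.0308 TPM in PB against 1.12 TPM elsewhere (log2 -3.99 ± 0.563, adjusted p = 1.21e-07). Adra1b was called higher in PB, with 24.4 against 15.2 TPM (log2 1.11 ± 0.157, adjusted p = 1.35e-07). With the other libraries as 1 group both calls in PB were lost (adjusted p = 0.111 and 0.592), as was that of Adra2b in DVC (adjusted p = 0.127). In ENT against ACA and FRP, where Adra2a was higher, Adra1b (log2 -1.75 ± 0.222, adjusted p = 3.45e-08) and Adra1d (log2 -1.25 ± 0.311, adjusted p = 0.0037) were lower. The group with the highest mean was ACA for Adra1b (55.0 TPM) and Adra1d (42.2 TPM), FRP for Adra1a (10.2 TPM) and Adrb1 (21.4 TPM), PVH for Adra2b (5.64 TPM), ACB for Adra2c (25.5 TPM) and mESC_B6-1 for Adrb3 (51.6 TPM). In embryonic hindbrain against adult hindbrain, 6 of the 8 were called lower and 1 higher, where 44.0% of all genes were called in either direction. The median log2 fold change was -2.84 over the list against 0.02 over all genes.

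Of 5 peptides that noradrenergic neurons can contain, 3 were called higher in PB and 1 lower, and 4 higher in DVC and 0 lower. Gal, for galanin, was called in PB (log2 2.79 ± 0.364, adjusted p = 2.18e-08), although its mean of 32.1 TPM there lay below the 39.7 TPM of the reference, which includes hypothalamic regions rich in it. Calca was 39.2 TPM in PB and 5.75 TPM in the reference (log2 3.73 ± 0.377, adjusted p = 2.23e-11). Npy was lower in PB, at 12.7 against 126 TPM (log2 -2.11 ± 0.381, adjusted p = 1.55e-05). With the other libraries as 1 group the call of Calca held (adjusted p = 0.0484), while those of Gal and Npy were lost (adjusted p = 0.998 and 0.253). Gal and Calca were also called higher in DVC than in NTS (log2 2.38 ± 0.539 and 2.95 ± 0.661, adjusted p = 0.0481 and 0.0462), a contrast that no member passed and in which 0.0651% of all genes were called higher. Replicate 1 of DVC, the library with the high cholinergic sum, held 86.2 TPM of Calca against 15.1 and 17.0 TPM in the other 2, and 64.1 TPM of Gal against 27.6 and 25.7 TPM. Without it the adjusted p was 0.814 for Calca (log2 1.22) and 0.433 for Gal (log2 1.83). The calls were lost in 4 of the 8 fits that left out 1 library for Calca and in 7 for Gal, and both were lost with a replicate block (adjusted p = 0.091 and 0.0708), with limma, without the mESC libraries and without the filter on low counts.

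Likeness across the 24 groups was measured as Pearson's r of log2(mean TPM + 1), among 19820 genes with a group mean of at least 1 TPM, and is a description, since the 24 points of each gene share the same libraries and depths. The genes most like Dbh were Slc6a2 (r = 0.923), Phox2a (0.801), Nps (0.777), Irx4 (0.771) and Evx2 (0.731). Those most like Slc6a2 were Dbh, Nps (0.909), Phox2a (0.852), Avil (0.796) and Irx4 (0.769), and Phox2a was also near Irx4 (0.837). Nps encodes neuropeptide S, known from cells beside the locus coeruleus, and had its highest mean in PB at 8.85 TPM. Pnmt was nearest to Gm28230 (0.753), Hoxd4 (0.733), Nxph2 (0.726), Car5b (0.714) and Hoxd3 (0.687), with 2 Hox genes of the caudal hindbrain among them. For Pnmt these values rest on at most 27 counts in a library and include the non-coding Pnmt-202, which raised its mean in NTS. Adra2a was nearest to Fgfr3 (0.928), 2310022B05Rik (0.928), B630019K06Rik (0.920), Prkaca (0.919) and Cib2 (0.914). Between Dbh and Th r was 0.147, and between Dbh and Pnmt 0.307.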

How the data were processed

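Total RNA of punched tissue or cultured cells was made into strand-specific mRNA libraries and sequenced as single reads, with base calling by CASAVA 1.8.2 per the submitters' processing notes. The authors quantified transcripts with Kallisto on GRCm38 cDNA and deposited estimated counts per transcript and TPM per transcript and per gene. The deposited estimated counts were not normalized between libraries, and TPM was scaled by the authors within each library and divides by transcript length, so a few reads on a short transcript give a large TPM. Libraries were grouped by the region or line in their labels. Transcripts were matched to genes with GENCODE release 21 (98.73% of 109282), and the estimated counts of a gene's transcripts were added and rounded. Unmatched transcripts held 0.43% to 0.79% of a library's counts.

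Counts of all 70 libraries were fitted in 1 model with a group per region or line (edgeR 4.0.16, R 4.3.3, TMM, filterByExpr, quasi-likelihood test, Benjamini-Hochberg adjustment over 19960 genes), with 11 comparisons drawn from it. The test was checked on simulated data for DVC against NTS: of 185 genes changed 4-fold among 17906 tested, 175 were called, with 4 calls among unchanged genes. The simulated counts had the same dispersion for every gene and the same mean in every group apart from the changed genes. In the data the SE of the members in this comparison was 0.244 to 0.901. The check therefore does not show how often a 4-fold change of a member would be called. Alternatives used DESeq2 1.42.0, limma 3.58.1 on log2(TPM + 0.5) and log2(TPM + 0.1), RLE size factors, no filter on low counts, the other adult regions as 1 group, a replicate block, no mESC libraries, no first VTA replicate (which had a high share of mitochondrial transcripts), and refits that each dropped 1 library. Leaving out CBN from the reference, leaving out M, THy-PHy, ACA and FRP libraries, and using only coding transcripts were chosen after seeing the data. Further steps used Python 3.11.15, NumPy 2.4.6, pandas 2.3.3, SciPy 1.17.1 and matplotlib 3.10.9.

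The members and lists were chosen with earlier results of these data known. All 5 members are described in every group. From each list the called genes with the 3 largest absolute log2 fold changes of a comparison could be named, with Th always, and for likeness the 5 genes with the highest r. Some of the genes this rule covers are not reported here. Markers of neighbouring tissue, ratios between members and single libraries were named after their values were seen. P-values measure the spread between pools of tissue. Intervals and limits for counts of 0 cover counting error only. Promoters of Slc6a2 and Pnmt were not used here.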

Additional observations from a re-analysis of the deposited data

Results flagged for a closer look

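In groups of 4 libraries with a mean of at least 1 TPM, 10 sets of values were examined for a library far from the others, a check that chance meets in about 1 in 20 sets. Dbh in CENT2 was one, with 7.34 TPM in replicate 1 and 0.0465 to 0.0936 TPM in the other 3, where the gap made up 0.994 of the range. Slc6a2 in NTS was the other, with 8.63 TPM in replicate 2 and 0.409 to 1.08 TPM in the other 3, where the gap made up 0.918 of the range. Both sets reached a mean of 1 TPM only through the library that stood apart, so the rate of 1 in 20 does not apply to them. In NTS replicate 2, Dbh was 20.7 TPM and Th 21.47 TPM, each the highest of the 4 NTS libraries.

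The contrast of hindbrain with midbrain and hypothalamus differed between adult and embryo for 3 members by edgeR's interaction test. The difference between the steps was 7.43 on the log2 scale for Dbh, 5.19 for Slc6a2 and 4.16 for Phox2a, with the adult step the larger for each. The sizes for Dbh and Phox2a depend on the prior count, since adult VTA held no read of either. Dbh and Slc6a2 lost their calls without THy-PHy replicate 1, and Phox2a lost its call with limma on log2(TPM + 0.5).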

How the results depend on the processing

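Of the counts of members called and shares of the highest group, 221 values under an alternative stayed close to the value reported and 18 moved. With the other adult regions as 1 group, 1 member each was called in NTS and DVC in place of 4 and 5. For embryonic hindbrain against midbrain and hypothalamus, DESeq2 and limma with either pseudocount called 2 members in place of 4, and leaving out 1 library gave 2 to 4. The interaction of stage gave 1 to 3, the lowest without THy-PHy replicate 1. For the hypothalamus, DESeq2 called 4 members and limma 2 (pseudocount 0.5) or 4 (pseudocount 0.1) in place of 1. For ENT against ACA and FRP, limma with a pseudocount of 0.1 called 2 in place of 1. On the scale of log2(TPM + 1) the share of the highest group was 24.1% for Dbh, 34.7% for Slc6a2, 19.1% for Phox2a and 6.04% for Adra2a. Leaving out 1 library of the highest group gave shares of 48.8% to 57.2% for Dbh, 54.8% to 64.5% for Slc6a2, 23.1% to 29.7% for Pnmt, 23.2% to 27.3% for Phox2a and 7.35% to 11.6% for Adra2a. Among fold changes of single genes, 1937 values stayed on their side of the threshold, 147 lost a call and 9 gained one.

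Signs turned only with the other adult regions as 1 group, among the fold changes with an unadjusted p under 0.05: Pnmt in PB (-0.055), Slc6a2 in DVC (-1.35), Tlx3 (-0.24) and Tac1 (-0.30) in NTS and Cartpt in DVC (-0.56), none of them called. That fit includes differences between regions in its spread and averages counts rather than logs. Libraries with the same replicate number did not deviate together (30 of 347 pairs had a correlation above 0.1, median 0.0184). With a replicate block the number of members called was the same in all 11 comparisons, 3 for PB, 4 for NTS and 5 for DVC. Calca and Gal lost their calls in DVC against NTS with this block, and Lmx1b lost its call in PB against NTS and DVC (adjusted p = 0.0515). Replicate numbers are not stated to mark a shared batch or mouse. Adult libraries of different regions did share mice, but neither check can show which libraries shared a mouse or a batch. Depth limits Pnmt above all, with at most 27 counts in a library.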
